A study of Homo sapiens with 6 samples.

Results

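10 genes of the Notch pathway were followed in libraries labelled SH-SY5Y, a neuroblastoma line. They were the receptors Notch1, Notch2 and Notch3, the ligands Dll3, Jag1 and Jag2, the glycosyltransferase Lfng, the DNA-binding protein Rbpj, and the HES family members Hes1 and Hes6. They were taken by symbol from tables of 53492 genes. Each symbol stood on 1 row, so no rows had to be summed. The study transfected cells with pCS2-eGFP-N (3 libraries named GFP, here the controls) or with pCS2-eGFP-CCNB1IP1 (3 libraries named GFP-CCNB1IP1, here the CCNB1IP1 group), and RNA sequencing asked what the CCNB1IP1 construct changes in the transcriptome. CCNB1IP1 (HEI10) is a ubiquitin ligase known from meiotic crossing over. The labels give neither the share of cells that took up a vector nor the time after transfection, and they do not say whether replicates were separate cultures, so p-values cover only the spread between these 6 libraries.

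Notch receptors are cut by furin on their way to the cell surface and carry sugars added by POFUT1, POGLUT1 and the Fringe enzymes. A Delta or Jagged ligand on a neighbouring cell pulls on the receptor, ADAM proteases and then gamma-secretase cut it, and the freed intracellular part enters the nucleus. There it joins RBPJ and a Mastermind coactivator and switches RBPJ from repression to activation of genes such as those of the HES and HEY repressors. In the developing nervous system this lateral signalling holds cells back from becoming neurons.

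All 53492 gene identifiers are those of mouse, and 0 of them match a human gene table, although the labels name a human line. All values below are therefore of mouse genes. Relative depth was estimated from the deposited intervals with the controls averaging about 1, and was 0.950 to 1.06 in 5 libraries and 0.743 in GFP-CCNB1IP1 replicate 2. Mouse Ccnb1ip1 was at or under 0.191 FPKM in every library, so it does not separate the groups. Whether reads of the construct would be counted on this mouse gene was not tested, so its level does not check the labels. The introduced sequence was not analysed here. Of 12 noradrenergic neuroblastoma markers, 9 had a mean of at least 1 FPKM, among them Phox2a, Hand2, Gata2 and Gata3, while Hand1 and Dbh had means under 1. Of lists of other cell types, 2 of 8 glial markers (Mbp, at 2.60 to 3.58 FPKM, and Erbb3, at 2.57 to 3.21), 2 of 7 fibroblast markers (Pdgfrb, at 4.18 to 4.83, and Pdgfra, at 0.902 to 2.46), 1 of 6 endothelial markers (Pecam1, at 1.59 to 2.17) and 0 of 6 leukocyte markers had such a mean. Csf1r, a leukocyte marker, reached 2.05 FPKM in GFP-CCNB1IP1 replicate 2. Sox10 and S100b of the glial list, Col1a1 and Col1a2 of fibroblasts, Kdr and Cdh5 of endothelium and Ptprc of leukocytes were at 0.28 FPKM or lower in every library.

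Rbpj and Jag2 led the set, and Hes1 was close to 0. In FPKM, which is scaled to transcript length, the means over the 6 libraries were 36.8 for Rbpj and 31.3 for Jag2. Lfng followed at 13.0, Hes6 at 10.9 and Notch2 at 8.05. The remaining 5 genes were low, with 1.90 for Notch3, 1.89 for Notch1, 1.04 for Jag1, 0.992 for Dll3 and 0.155 for Hes1. Neighbours in this order with separate ranges over the 6 libraries were Jag2 above Lfng, Hes6 above Notch2, Notch2 above Notch3, and Dll3 above Hes1. Rbpj and Jag2, Lfng and Hes6, Notch3 and Notch1, Notch1 and Jag1, and Jag1 and Dll3 overlapped. Lfng was nevertheless above Hes6 in each of the 6 libraries. Whether the mismatch between the labelled human line and the mouse identifiers bears on comparisons between genes, here and in the shares below, was not tested.

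**Figure D1:**
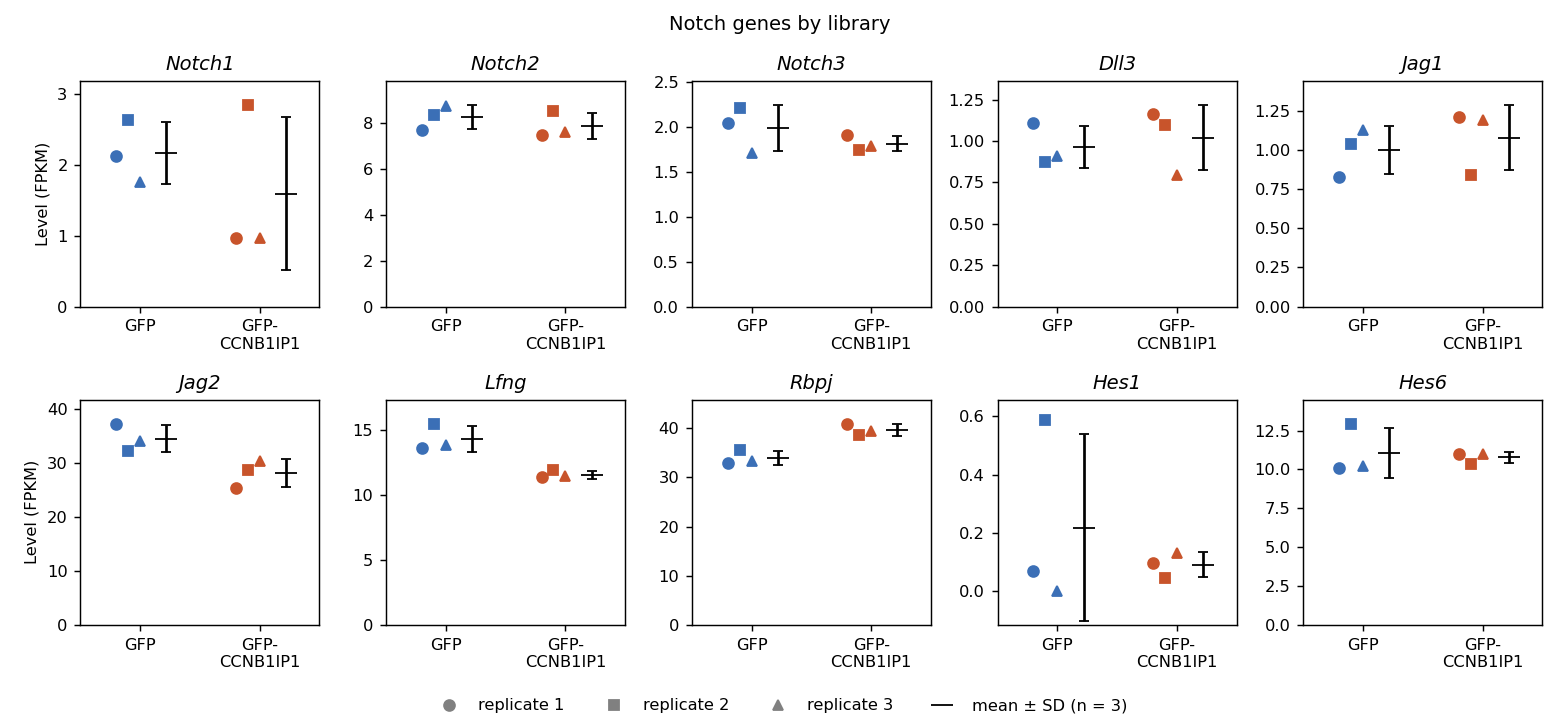
Level in FPKM of each of the 10 Notch genes, by library, with the mean and SD of each group of 3; each panel has its own vertical axis. Jag2 and Lfng sit lower in every library of the CCNB1IP1 group than in any control, Rbpj sits higher, and the groups of the other 7 genes overlap.

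No member passed limma's test at an adjusted p under 0.05 (Benjamini-Hochberg over 13231 genes with a mean of at least 1 FPKM), and 3 passed at an unadjusted p under 0.05. Jag2 and Lfng had lower levels in the CCNB1IP1 group and Rbpj had higher ones, each without overlap of the groups, and their adjusted p-values were 0.286, 0.269 and 0.270. Of the 10 members, 8 reached the mean of 1 FPKM, while Dll3 and Hes1 did not. Of all genes tested, 0.00756% passed the adjusted threshold. At the unadjusted one, 1 of the 8 members was higher against 5.59% of all genes, and 2 were lower against 5.77%. Groups without overlap were found for 1 higher member against 8.7% of all genes and for 2 lower members against 8.9%. With 8 members these counts are too few to set the list apart from the rest. The median difference was -0.07 over the 8 members and 0.0037 over all genes in log2(FPKM + 1). That scale makes differences of low genes smaller than they are. These are means over all cells of a culture, so fewer cells with a transcript and less of it per cell cannot be told apart.

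**Figure D2:**
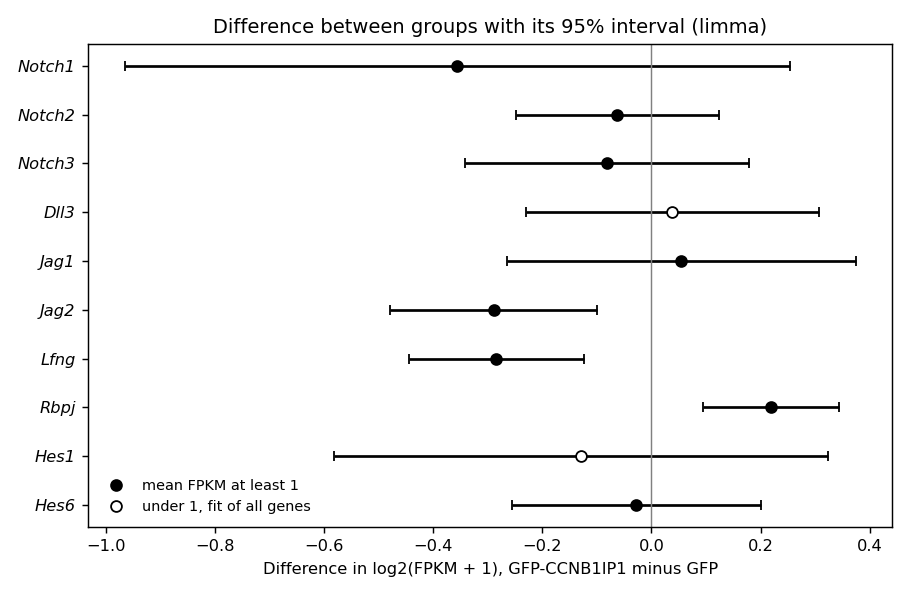
Difference in log2(FPKM + 1), GFP-CCNB1IP1 minus GFP, with limma's 95% interval for each Notch gene; open points mark the 2 genes under a mean of 1 FPKM, taken from a fit of all genes above 0. The intervals of Jag2, Lfng and Rbpj leave out 0 before any adjustment, and those of the other 7 genes include it.

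Among the receptors, Notch2 was the main transcript and was nearly level between the groups. Notch2 (ENSMUSG00000027878.12, chromosome 3, 97920843 to 98057677, on a genome build that no source used here gives) had 7.69, 8.33 and 8.71 FPKM in the controls and 7.47, 8.50 and 7.59 in the CCNB1IP1 group. The groups overlapped, with means of 8.25 ± 0.514 and 7.85 ± 0.564 (SD, n = 3). The difference of -0.06 on the log2 scale had a 95% interval from -0.25 to 0.12 (limma, adjusted p = 0.809). Notch2 made up 57.3 to 63.5% of the summed FPKM of the 4 receptors in the controls and 59.9 to 67.2% in the CCNB1IP1 group, which overlap.

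Notch3, a receptor best known from vascular smooth muscle, stood well under the Notch2 level. Notch3 (ENSMUSG00000038146.9, chromosome 17, 32339794 to 32385826) had 2.05, 2.21 and 1.71 FPKM in the controls and 1.92, 1.75 and 1.79 in the CCNB1IP1 group. The groups overlapped, and GFP replicate 3 was the lowest of all 6. The difference was -0.08 on the log2 scale, with an interval from -0.34 to 0.18 (limma, adjusted p = 0.826).

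Notch1, the receptor most studied in neural progenitors, was the least settled of the 3. Notch1 (ENSMUSG00000026923.16, chromosome 2, 26347915 to 26406675) had 2.13, 2.64 and 1.76 FPKM in the controls and 0.976, 2.85 and 0.972 in the CCNB1IP1 group. GFP-CCNB1IP1 replicate 2, the shallowest library, held the highest value of all 6, and the other two of its group held the lowest. The difference of -0.36 on the log2 scale ran from -0.97 to 0.25 (limma, adjusted p = 0.656). Without GFP-CCNB1IP1 replicate 2 it was -0.68 (limma, adjusted p = 0.366; unadjusted p = 0.00358), and without GFP-CCNB1IP1 replicate 1 or 3 it was -0.20 or -0.19.

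The deposited tables give an interval around each FPKM, and for Notch1 it was wide. Its upper bound lay 68.7 to 169% of the value above it, with a median of 94.4% over the 6 libraries, and its lower bound was 0 in 2 of them. For Notch3, at nearly the same mean level, the upper bound lay 18.0 to 25.2% above the value, and for Notch2 6.32 to 6.70%. Of 1110 genes with means from 1.5 to 2.5 FPKM, 45 (4.05%) had a median this wide, and the middle one was at 32.6%. The tables hold genes only, and the source of the width of Notch1 was not tested. This comparison was chosen after the values had been seen.

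**Figure D3:**
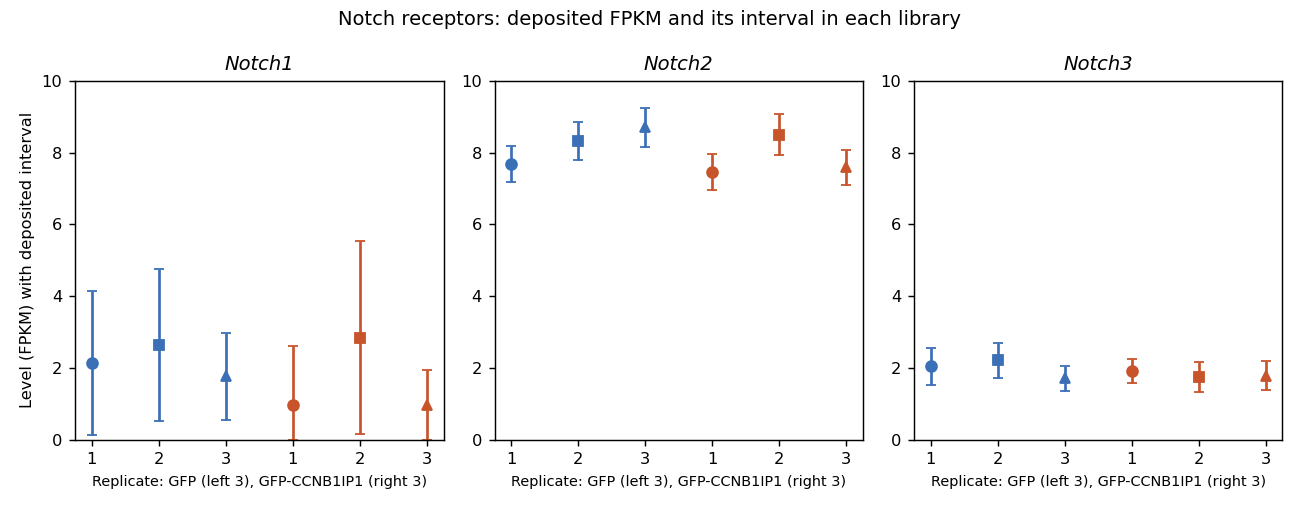
FPKM of Notch1, Notch2 and Notch3 in each library (points) with the deposited lower and upper bounds (bars), GFP in blue and GFP-CCNB1IP1 in orange. Bars of Notch1 reach 0 in 2 libraries of the CCNB1IP1 group and overlap between all 6, while those of Notch2 stay within 6.70% of the value.

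Among the ligands, nearly all transcript was that of Jag2, and its level was lower in the CCNB1IP1 group before adjustment. Jag2 (ENSMUSG00000002799.7, chromosome 12, 112871439 to 112893396), a Jagged ligand that activates receptors on neighbouring cells, had 37.3, 32.2 and 34.1 FPKM in the controls. It had 25.3, 28.7 and 30.3 FPKM in the CCNB1IP1 group, so every one of these lay under every control value. The means were 34.6 ± 2.56 and 28.1 ± 2.55 FPKM (SD, n = 3), a ratio of 0.814. The difference was -0.29 on the log2 scale (SE 0.082, interval -0.48 to -0.10; limma, unadjusted p = 0.00805, adjusted p = 0.286). Jag2 held 91.2 to 92.6% of the summed FPKM of 5 Delta and Jagged genes in the controls and 89.8 to 91.3% in the others, which overlap.

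Jag1 and Dll3 were near 1 FPKM and showed no separation. Jag1 (ENSMUSG00000027276.8, chromosome 2, 136923376 to 136958564), the other Jagged ligand, had 0.827, 1.04 and 1.13 FPKM in the controls and 1.21, 0.840 and 1.19 in the CCNB1IP1 group. Its difference was 0.05 on the log2 scale, with an interval from -0.27 to 0.37 (limma, adjusted p = 0.911). Dll3 (ENSMUSG00000003436.12, chromosome 7, 27992978 to 28001663), a divergent Delta protein known to act inside the cell against Notch and to be abundant in neuroendocrine tumours, had 1.11, 0.871 and 0.909 FPKM and then 1.16, 1.10 and 0.796. With all 26841 genes above 0 in the fit, its difference was 0.04 (interval -0.23 to 0.31; limma, adjusted p = 0.923). For both genes the 6 values were interleaved, and these intervals leave room for a change in either direction. In the list of other pathway genes, the Delta ligands Dll1 and Dll4 had means of 0.723 and 0.162 FPKM.

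Lfng, the Lunatic Fringe enzyme that lengthens sugars on Notch and shifts its preference from Jagged towards Delta ligands, was lower in the CCNB1IP1 group before adjustment. Lfng (ENSMUSG00000029570.6, chromosome 5, 140593075 to 140601300) had 13.6, 15.5 and 13.9 FPKM in the controls and 11.4, 11.9 and 11.4 in the CCNB1IP1 group. The second group was the tighter, with an SD of 0.299 against 1.02 FPKM, and no value of either group reached into the other. The ratio of the means was 0.807, and the difference was -0.28 on the log2 scale (SE 0.069, interval -0.44 to -0.12; limma, unadjusted p = 0.00355, adjusted p = 0.269). Of all genes tested, 7.23% had a difference at least this large in either direction.

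By its FPKM value, Lfng stood above its paralog Mfng, Manic Fringe, in the controls and close to it in the CCNB1IP1 group. Mfng was set beside Lfng after the values had been seen. Mfng had 12.4, 11.4 and 11.5 FPKM in the controls and 11.7, 12.2 and 11.8 in the others (limma, adjusted p = 0.957). Lfng was above Mfng in 3 of 3 controls and in 0 of 3 libraries of the CCNB1IP1 group. In the CCNB1IP1 group every Mfng value lay within the deposited interval of Lfng (10.1 to 12.7, 10.1 to 13.7 and 10.1 to 12.8 FPKM). The order there is therefore not settled. Among the controls, only the Mfng value of GFP replicate 1 lay within that interval. Of the summed FPKM of Lfng, Mfng and Rfng, Lfng held 41.3, 46.1 and 42.6% in the controls and 37.1, 37.4 and 39.8% in the CCNB1IP1 group, without overlap. This share was not tested on its own, since the smallest p of an exact permutation test with 3 libraries a side is 0.1.

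Rbpj, the transcription factor through which all 4 receptors act, was the member that was higher in the CCNB1IP1 group without overlap and at an unadjusted p under 0.05. Rbpj (ENSMUSG00000039191.13, chromosome 5, 53623494 to 53814704) had 32.9, 35.6 and 33.2 FPKM in the controls and 40.9, 38.6 and 39.4 in the CCNB1IP1 group. The groups did not overlap, and the means were 33.9 ± 1.45 and 39.6 ± 1.17 FPKM (SD, n = 3), a ratio of 1.17. The difference was 0.22 on the log2 scale (SE 0.054, interval 0.10 to 0.34; limma, unadjusted p = 0.00362, adjusted p = 0.270). Jag2 stood above Rbpj in 2 of 3 controls and in 0 of 3 libraries of the CCNB1IP1 group. In those controls the deposited intervals overlapped. They were 34.2 to 40.4 FPKM for Jag2 and 29.8 to 36.0 for Rbpj in GFP replicate 1. In GFP replicate 3 they were 31.3 to 37.0 and 29.9 to 36.6 FPKM. The order there is therefore not settled, and it also depends on how reads were divided between Rbpj and the locus described next.

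The Rbpj value has a limit in a second locus. Rbpj-ps3 (ENSMUSG00000079575.4, chromosome 6, 46506288 to 46507728), named as an Rbpj pseudogene and found after the values had been seen by a search for names derived from those of the members, had 30.7, 32.2 and 33.7 FPKM in the controls. In the CCNB1IP1 group it had 38.9, 41.4 and 38.9 FPKM. These levels were close to those of Rbpj itself, and Rbpj-ps3 held 47.5 to 51.7% of their sum. How reads were divided between such copies is uncertain. Rbpj-ps3 differed by 0.29 on the log2 scale, also without overlap (SE 0.056; limma, unadjusted p = 0.000834, adjusted p = 0.178). With both loci summed, the levels were 63.6, 67.8 and 67.0 FPKM against 79.8, 80.0 and 78.2, and the difference was 0.26 (SE 0.045; limma, unadjusted p = 0.00048, adjusted p = 0.173). The sum was higher in each library of the CCNB1IP1 group than in any control; lengths of the transcripts, which bear on a sum of FPKM, are not in the tables. Rbpjl, an Rbpj-like gene, had 3.10 to 4.37 FPKM, and Rbpj-ps1 was listed at 0 throughout.

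**Figure D4:**
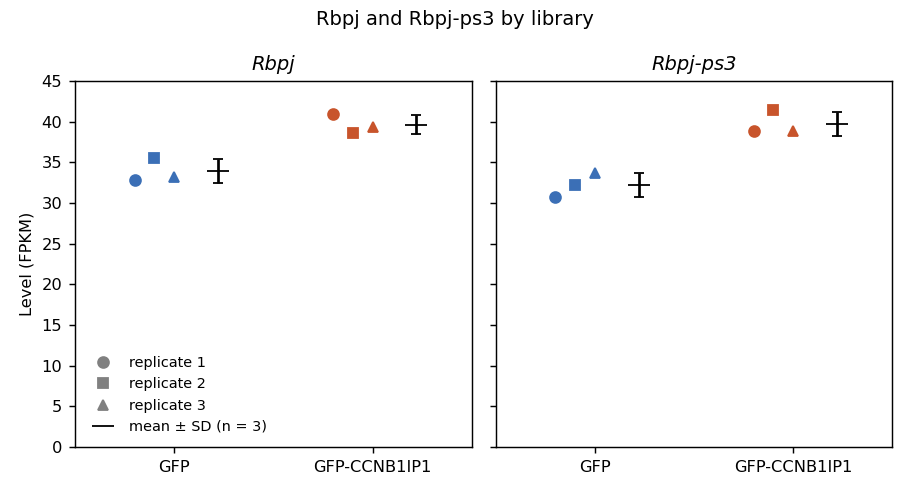
Level in FPKM of Rbpj and of the pseudogene locus Rbpj-ps3 by library, with the mean and SD of each group of 3. Both stand between 30.7 and 35.6 FPKM in the controls and between 38.6 and 41.4 FPKM in the CCNB1IP1 group.

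The HES members stood far apart in level. Hes1 (ENSMUSG00000022528.9, chromosome 16, 29883202 to 29886614), a direct Notch target that represses proneural genes, was at 0.069 and 0.587 FPKM in GFP replicates 1 and 2 and listed at 0 in replicate 3. In the CCNB1IP1 group it was at 0.096, 0.046 and 0.132 FPKM. The deposited lower bound was 0 in all 6 libraries, and the groups overlapped. With all genes above 0 in the fit, the difference was -0.13 with an interval from -0.58 to 0.32 (limma, adjusted p = 0.832).

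Hes6 (ENSMUSG00000067071.9, chromosome 1, 91339205 to 91341760), a family member known to oppose Hes1 and to favour neuronal differentiation, had 10.1, 12.9 and 10.2 FPKM in the controls and 11.0, 10.4 and 11.0 in the CCNB1IP1 group. GFP replicate 2 stood above the other 5, which lay within 10.1 to 11.0 FPKM. The difference of -0.03 on the log2 scale ran from -0.26 to 0.20 (limma, adjusted p = 0.943). Without GFP replicate 2 it was 0.08.

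Other sums moved with the groups. The summed FPKM of the 12 noradrenergic markers was 609 to 645 in the controls and 570 to 589 in the CCNB1IP1 group. Most of that gap was Ret, with 147 to 152 and 124 to 127 FPKM, and Hand2, with 117 to 140 and 111 to 125. Hand2 overlapped between the groups, while Chga, with 87.7 to 91.1 and 73.9 to 85.1 FPKM, did not. Gata2 and Gata3 had higher means in the CCNB1IP1 group (125 against 120 and 4.05 against 3.83 FPKM). The 6 endothelial markers summed to 1.95 to 2.40 and 2.41 to 2.67 FPKM, most of it Pecam1, with Kdr and Emcn at or near 0. Sums of mesenchymal markers (698 to 775 and 761 to 845 FPKM, mostly Vim), of glial markers (6.72 to 7.49 and 7.09 to 8.26) and of fibroblast markers (6.06 to 7.63 and 6.39 to 7.72) overlapped. Their part in the values of Jag2, Lfng and Rbpj was not tested. No gene that overlaps one of the 10 loci reached a mean of 1 FPKM, and the one with most, in the Notch1 locus, had 0.582 FPKM.

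The other pathway genes were taken from a list of Notch pathway genes by role. All 71 other genes on it were found, and 57 of them had a mean of at least 1 FPKM. By limma, 0 passed at an adjusted p under 0.05 in either direction. At an unadjusted p under 0.05, 1 was higher against 5.59% of all genes, and 6 were lower against 5.77%. Their median difference was -0.0014 on the log2 scale, with 28 higher and 29 lower, and groups did not overlap for 4 higher genes against 8.7% of all genes and for 8 lower ones against 8.9%.

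Upstream of the cleavage, no gene of this list with a mean of at least 1 FPKM had an unadjusted p under 0.05. Dner, a ligand-like protein of neurons, had a mean under 1 FPKM, with 0.323, 0.561 and 0.361 FPKM in the controls and 0.205, 0.187 and 0.215 in the CCNB1IP1 group, without overlap. With all genes above 0 in the fit, its difference was -0.23 on the log2 scale (SE 0.070; limma, unadjusted p = 0.0184, adjusted p = 0.486). Notch4, the remaining receptor, had 1.24 ± 0.385 FPKM in the controls and 1.04 ± 0.260 in the CCNB1IP1 group (SD, n = 3). The most abundant of the ligand-like proteins were Egfl7, a secreted vascular protein, with 61.7 ± 2.63 and 59.8 ± 3.0 FPKM, and Dlk1, a non-canonical ligand, with 9.78 ± 0.568 and 9.45 ± 0.565. Of the E3 ligases that drive ligand uptake, Mib2 had 31.7 ± 0.846 and 32.4 ± 3.36 FPKM and Neurl1a had 20.5 ± 1.42 and 19.7 ± 1.15. Furin, the protease of the first cut, had 31.2 ± 3.81 and 30.2 ± 4.13 FPKM, and Poglut1, which adds glucose to the receptor, had 18.8 ± 1.85 and 18.9 ± 1.44.

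At the protease step, the scaffold of gamma-secretase had the smallest p-value of the list. Aph1a, which encodes it, had 31.1, 30.6 and 26.5 FPKM in the controls and 39.0, 41.6 and 44.0 in the CCNB1IP1 group, the largest difference among the 57 genes (0.49 on the log2 scale, SE 0.076; limma, unadjusted p = 0.000236, adjusted p = 0.176). Psenen, the most abundant, had 53.5 ± 3.72 and 57.8 ± 3.25 FPKM, and its groups overlapped. Aph1b and Aph1c are close copies, and the division of reads between them is uncertain.

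Among genes of receptor turnover, Dtx3 of the Deltex family of ubiquitin ligases had the smallest p-value. It had 71.9, 73.4 and 76.7 FPKM in the controls and 61.1, 63.6 and 59.2 in the CCNB1IP1 group (-0.27 on the log2 scale, SE 0.050; limma, unadjusted p = 0.000692, adjusted p = 0.176). Every control lay above every library of the CCNB1IP1 group. Numbl, an adaptor related to the Notch antagonist Numb, had 22.5 ± 2.22 and 23.7 ± 0.791 FPKM.

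In the nucleus, 4 of 14 measured corepressor genes were lower at an unadjusted p under 0.05 and 0 were higher, against 5.77% and 5.59% of all genes tested, and none passed adjustment. With 14 genes this is a description of the list only. Spen, which binds RBPJ and recruits histone deacetylases, had 17.3 ± 1.07 FPKM in the controls and 14.3 ± 0.664 in the CCNB1IP1 group (limma, adjusted p = 0.272). Tle3, a Groucho family corepressor that HES proteins recruit, had 33.8 ± 0.861 and 28.9 ± 1.05 FPKM (limma, adjusted p = 0.249). Its relative Tle2 had 5.01 ± 0.914 and 3.68 ± 0.315 FPKM with overlapping groups, and Ctbp2 had 10.9 ± 0.227 and 9.68 ± 0.312. The most abundant, Ncor1 and Hdac2, had 62.1 ± 3.60 and 64.6 ± 4.59 FPKM and 60.8 ± 1.16 and 61.7 ± 2.09 FPKM, and both overlapped. L3mbtl3 was listed at 0 in all 6 libraries. Of the 7 coactivator genes, 0 passed at an unadjusted p under 0.05, with Snw1 at 53.3 ± 2.37 and 57.0 ± 1.34 FPKM and Kat2a at 43.3 ± 1.70 and 40.0 ± 0.698.

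Most target genes other than Hes1 were low as well, and all overlapped between the groups. Hey1 was the most abundant target, with 7.14 ± 0.806 FPKM in the controls and 7.42 ± 0.260 in the CCNB1IP1 group (limma, adjusted p = 0.862). Nrarp, a feedback inhibitor that Notch induces, had 2.77 ± 0.428 and 2.94 ± 0.452 FPKM (limma, adjusted p = 0.891). The other 6 targets on the list had means from 0.171 to 1.79 FPKM. Among proneural and neuroendocrine factors, Insm1 had 16.5 ± 2.62 and 15.5 ± 0.606 FPKM and Neurog2 had means of 0.184 and 0.107.

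**Figure D5:**
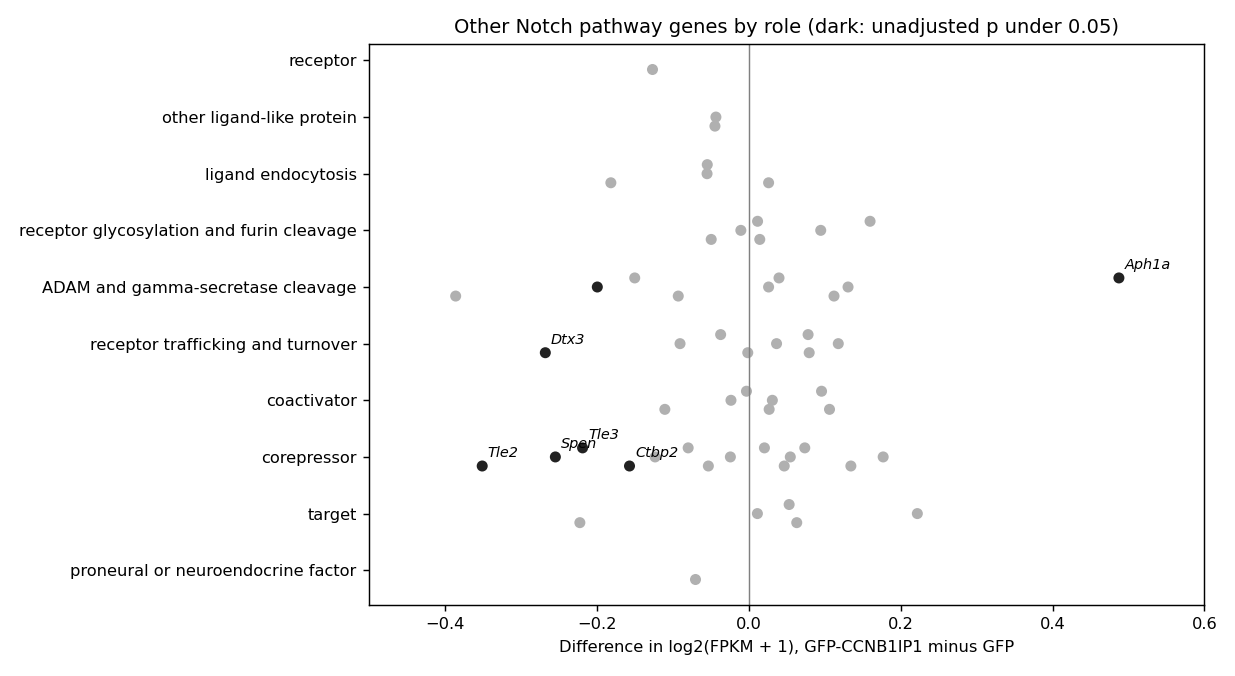
Difference in log2(FPKM + 1), GFP-CCNB1IP1 minus GFP, for the 57 other pathway genes with a mean of at least 1 FPKM, in rows by role; dark points are those at an unadjusted p under 0.05 by limma. Of the 7 dark points, Aph1a is on the higher side and 6 are on the lower side, Dtx3, Spen, Tle2, Tle3 and Ctbp2 among them.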

How the data were processed

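Polyadenylated RNA was sequenced from 6 libraries, 3 per group. HISAT2 and Cufflinks, without versions, are named in the submitters' processing notes; no source used here gives the build or annotation. Per the file headers, the authors deposited FPKM (fragments scaled by transcript length and library size) for each gene, with a lower and an upper bound. Strand is not stated, so overlapping and antisense genes cannot be told apart. Identifiers on several rows (38) were summed. Start positions in the tables count from 0 and were moved to count from 1. limma 3.58.1 (R 4.3.3, two-sided, mean-variance trend, no block) was fitted to log2(FPKM + 1) for the 13231 genes with a mean of at least 1 FPKM, with Benjamini-Hochberg adjustment over all of them; Dll3, Hes1 and Dner, under that mean, were read from a fit of all 26841 genes above 0. The test was checked on simulated data. Read totals are not in the tables; relative depth is the median, over 2244 genes, of the fragments per FPKM that the bounds imply, taken as 2 standard errors wide.

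The members and lists were chosen with earlier results of these data known. All 10 members are given. Of 71 other pathway genes, each role gives the 2 with the highest mean and any at an unadjusted p under 0.05; Mfng, Rfng, L3mbtl3, Rbpjl and the Rbpj pseudogenes, the shares within gene families and the order of pairs were chosen after their values were seen. Alternatives were pseudocounts of 0.1 and 5, no filter, a mean of at least 5 FPKM, median-of-ratios scaling, quantile normalization, TPM, a replicate block, a robust prior, limma without the trend, and each library left out. Summing Rbpj with Rbpj-ps3 was added after seeing the data. Some genes that these rules take are not reported here.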

Additional observations from a re-analysis of the deposited data

How the results depend on the processing

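Jag2, Lfng and Rbpj kept their direction and an unadjusted p under 0.05 in limma in each of the 16 alternatives, with differences from -0.34 to -0.22, -0.32 to -0.22 and 0.20 to 0.25 on the log2 scale. None passed adjustment in any of them, with adjusted p-values from 0.254 to 0.523, 0.236 to 0.463 and 0.214 to 0.496. With 1 library left out, members without overlap numbered 3 to 6. Of all 13231 genes, 12.3 to 16.4% were then higher without overlap and 13.0 to 15.4% lower. Members at an unadjusted p under 0.05 numbered 3 to 4 in these fits, where 1117 to 1666 of all genes passed. The 6 came without GFP-CCNB1IP1 replicate 2, where Notch1, Notch2, Jag2 and Lfng were lower against 13.2% of all genes and Jag1 and Rbpj higher against 15.7%. With 1 library left out, differences near 0 changed sign for Jag1 (-0.0084 to 0.14, negative without GFP replicate 1), Hes6 (-0.086 to 0.080) and Hes1 (-0.26 to 0.077, both positive without GFP replicate 2) and Dll3 (-0.014 to 0.12, negative without GFP-CCNB1IP1 replicate 1). Pathway genes at an unadjusted p under 0.05 numbered 4 to 9, against 7, with 1 library left out. The 9 came without GFP replicate 2, where 1666 of all genes passed, and the 4 without GFP replicate 1, where 1273 did. The 1 gene called over the whole table became 0 with a pseudocount of 5, without the filter, with the replicate block and without the trend, and 0 to 4 with 1 library left out. With the replicate block, 3 members and 5 pathway genes had an unadjusted p under 0.05, as did 1392 of all 13231 genes, against 1502 without the block. The labels give a replicate number and do not say whether libraries with the same number were prepared together. Correlations of same-numbered deviations were 0.023, -0.0093 and -0.011, which cannot settle this. The causes were not tested. The deposited lower bound of Hes1 was 0 in all 6 libraries.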

Other observations

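GFP-CCNB1IP1 replicate 2, the library with the highest Notch1 value and the lowest relative depth (0.743), also stood apart in 2 leukocyte genes, chosen after their values were seen. Csf1r, the receptor of the macrophage growth factor CSF1, had 2.05 FPKM there and at most 0.075 in each of the other 5 libraries. Cd68, a lysosomal gene abundant in macrophages, had 1.47 FPKM there and 0.177 to 0.678 in the others. The leukocyte gene Ptprc was at 0.111 FPKM there and listed at 0 in the other 5. Their part in the Notch1 value of that library was not tested.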
